A study of Mus musculus with 11 samples.

Results

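The genes of microtubules and of transport along them were followed through single cells of the mouse stellate ganglion. The set holds every row of the expression table named as an alpha-, beta- or gamma-tubulin, a stathmin, a numbered kinesin or a kinesin light chain. It also holds the cytoplasmic dynein chains, dynactin subunits 1 to 6, the MAP1, MAP2, MAP4, MAP6, MAP7 and MAP9 proteins, Mapt and Dcx. By these names 87 of 19444 genes are members, chosen by symbol and not by any measured value. They comprise 28 kinesins, 17 dynein chains, 10 microtubule-associated proteins, 9 beta-tubulins of which 2 are listed pseudogenes, and 7 alpha-tubulins. The others are 6 dynactin subunits, 4 stathmins, 3 kinesin light chains, 2 gamma-tubulins and the kinesin-binding protein Kif1bp. The listed pseudogene Dynlt1-ps1 is counted among the dynein chains throughout. All 87 symbols were found in GENCODE M21, and 28 members have exons that overlap another gene there. All cells came from male C57BL/6J mice aged 6 to 8 weeks that carried the tracer CTB-488 from the forelimb and CTB-555 from the interscapular brown fat. Each of the 3 sets is a pool of the ganglia of 2 mice and counts as 1 replicate (n = 3). The clusters are numbers given by the authors with no cell type name, and the tracer of each cell was not used here.

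Microtubules are hollow tubes of alpha- and beta-tubulin that run the length of an axon with their fast-growing ends toward the terminal. Kinesins carry cargo outward along them, and cytoplasmic dynein, with its cofactor dynactin, carries cargo back to the cell body. Stathmins bind free tubulin and favour disassembly, whereas MAPs and tau bind the lattice and stabilise or space it. The stellate ganglion holds sympathetic neurons whose long unmyelinated axons reach the heart, forelimb and thoracic fat, and retrograde tracers reach the cell body by this dynein route.

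Cells were compared in 5 classes: cluster 4 (54 cells), the high-count cells of cluster 3 (47), the low-count cells of cluster 3 (54), cluster 1 (388) and cluster 2 (335). Cluster 3 was parted by the total count of the cell at its widest gap, where the deepest low-count cell had 18608 counts, the next deepest 9804, and the shallowest high-count cell 52105. Median counts per cell were 35488.5 in cluster 4, 68061 in high-count cluster 3, 2683.5 in low-count cluster 3, 28396 in cluster 1 and 40121 in cluster 2. The table held 30518080 counts, with 2050165 to 3373157 on each of 11 plates. All 96 well barcodes occurred on more than 1 plate, so cells were told apart by plate and barcode together. Of 7 listed neuron markers 6 were in the table, and all 6 were detected in each class. The 8 glial and Schwann cell markers summed to 12.1 to 20.2 counts per 10000 over the sets of cluster 4, 9.69 to 14.2 in high-count cluster 3, 7.69 to 9.43 in cluster 1 and 8.87 to 11.4 in cluster 2. Low-count cluster 3 also carried all 8 endothelial markers, at 9.69 to 32.1 counts per 10000, so it is described apart.

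The promoters of 4 members on which the results turn are shown here: Tuba1a and Tubb5, the pair that varied most closely from cell to cell, Tubb3, the beta-tubulin typical of neurons, and Kif22, the member with the highest difference in cluster 4. Each is the 250 bases before the start in RefSeq (GRCm38.p6), 5′ to 3′ on the strand of the gene, and capitals mark, on either strand, the CCAAT box, the GC box with the letters GGGCGG, the TATA box (TATAAA), the AP-1 site as TGANTCA or the cAMP response element as TGACGTCA. Tuba1a stands at chr15:98953502-98953751 (minus strand), Tubb5 at chr17:35838302-35838551 (minus), Tubb3 at chr8:123411303-123411552 (plus) and Kif22 at chr7:127042421-127042670 (minus). The gene starts in GENCODE M21 fall inside these windows, at 98953703 (Tuba1a), 35838306 (Tubb5), 123411424 (Tubb3) and 127042471 (Kif22). By those starts part of each window, and the motifs marked in Tuba1a, lie within the gene.
Tuba1a: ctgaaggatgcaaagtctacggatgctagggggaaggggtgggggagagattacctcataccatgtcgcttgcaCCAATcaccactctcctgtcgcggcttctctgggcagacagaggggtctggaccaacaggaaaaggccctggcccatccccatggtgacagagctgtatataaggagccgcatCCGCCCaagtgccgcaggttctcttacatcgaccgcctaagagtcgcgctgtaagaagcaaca
Tubb5: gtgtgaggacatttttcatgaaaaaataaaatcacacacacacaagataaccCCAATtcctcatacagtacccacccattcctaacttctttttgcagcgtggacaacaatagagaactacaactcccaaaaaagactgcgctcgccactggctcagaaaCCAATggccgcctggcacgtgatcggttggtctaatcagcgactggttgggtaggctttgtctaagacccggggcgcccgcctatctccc
Tubb3: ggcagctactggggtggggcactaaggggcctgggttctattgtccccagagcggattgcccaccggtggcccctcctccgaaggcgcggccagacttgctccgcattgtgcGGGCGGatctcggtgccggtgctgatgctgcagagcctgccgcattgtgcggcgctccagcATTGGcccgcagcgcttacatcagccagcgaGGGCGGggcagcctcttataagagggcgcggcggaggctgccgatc
Kif22: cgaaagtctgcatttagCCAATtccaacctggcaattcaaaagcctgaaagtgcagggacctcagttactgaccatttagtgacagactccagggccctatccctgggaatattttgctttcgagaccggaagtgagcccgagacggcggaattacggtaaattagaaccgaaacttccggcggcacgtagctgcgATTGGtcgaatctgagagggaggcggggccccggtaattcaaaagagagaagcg
CCAAT stood in all 4 windows, once in Tuba1a and Tubb3 and 2 times each in Tubb5 and Kif22. The GC box stood once in Tuba1a and 2 times in Tubb3. The letters TATAAA, the AP-1 site and the cAMP response element stood in none of them, and no marked motifs overlapped. Only exact letters were sought, so variants of the TATA box are not counted here or in the shares below. Promoters were listed for 63 members, 73 promoters in all, and Stmn2 and Dynll2 had none listed. Of the 73 promoters, 30 (41.1%) had the CCAAT box, 41 (56.2%) the GC box, 10 (13.7%) the TATA box, 42 (57.5%) an E box (CANNTG), 0 the AP-1 site and 5 (6.85%) the cAMP response element. Over all 32851 listed promoters the shares were 33.8% for the CCAAT box, 32.7% for the GC box, 12.4% for the TATA box, 66.2% for the E box, 6.75% for the AP-1 site and 1.55% for the cAMP response element.

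Together the members made up 3.51% of all counts in cluster 4, 3.52% in high-count cluster 3, 2.03% in low-count cluster 3, 3.66% in cluster 1 and 3.46% in cluster 2. Levels are mean counts per 10000 over the cells of a class, given for Sets 1, 2 and 3 in that order. The reads are 3′ ends, so the counts were not divided by transcript length. Alpha-tubulins summed to 71.8 ± 6.26 counts per 10000 in cluster 4, 72.4 ± 4.88 in high-count cluster 3, 28.3 ± 7.57 in low-count cluster 3, 80.9 ± 4.95 in cluster 1 and 71.7 ± 2.47 in cluster 2 (SD, n = 3 sets). Beta-tubulins summed to 63.7 ± 1.496 in cluster 4, 64.7 ± 5.06 in high-count cluster 3, 31.2 ± 6.11 in low-count cluster 3, 73.1 ± 1.13 in cluster 1 and 63.3 ± 0.0785 in cluster 2. Cluster 1 thus stood above the other classes in the summed level of beta-tubulin, with no overlap between its sets and those of any other class, and low-count cluster 3 stood far below in both sums. Stathmins summed to 48.8 ± 5.01, 51.6 ± 3.33, 31.4 ± 15.6, 55.6 ± 5.22 and 53.1 ± 4.71 in cluster 4, high-count cluster 3, low-count cluster 3, cluster 1 and cluster 2. The 4 deep classes, that is all but low-count cluster 3, overlapped in that sum.

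**Figure D1:**
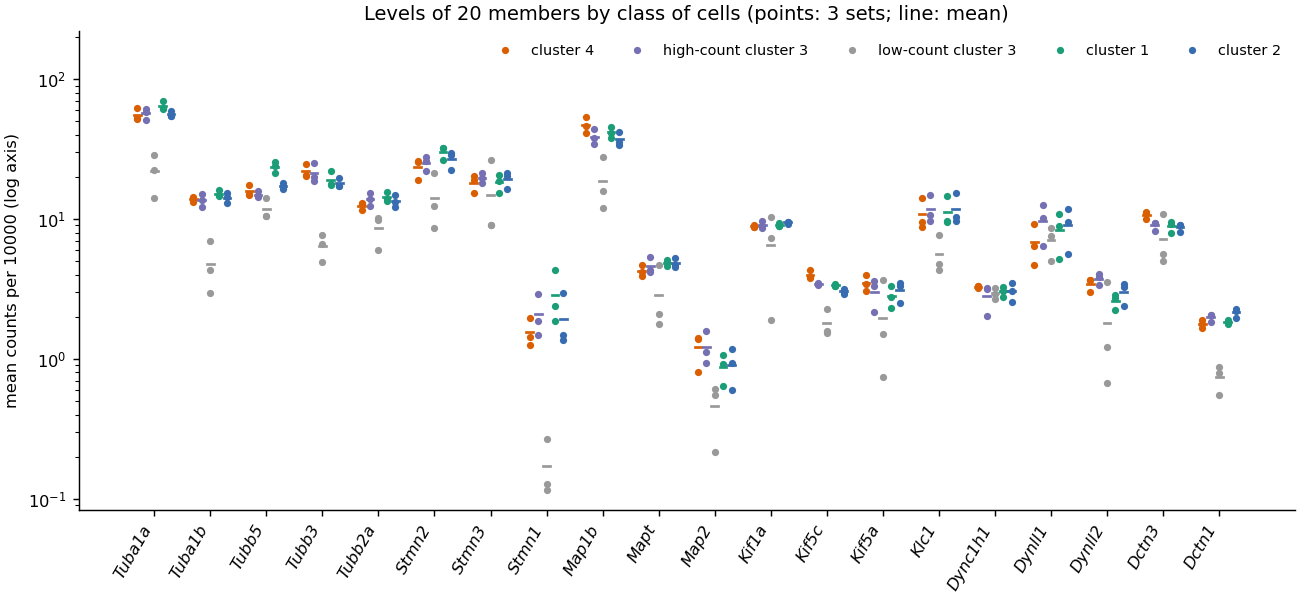
Mean counts per 10000 (log axis) of 20 members in 5 classes of cells; each point is 1 of 3 sets and each line the mean. Most members lay close together in cluster 4, high-count cluster 3, cluster 1 and cluster 2, and low-count cluster 3 lay lower for Tuba1a, Tubb3, Stmn1 and Map1b.

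In cluster 4, members of the same family differed from clusters 1 and 2 in opposite directions. Of 65 members tested, 16 were higher and 13 lower (44.6%), at an adjusted p under 0.05 in limma with the set as a block. Over all 10564 genes 24.7% passed, 12.4% higher and 12.3% lower. By family, 2 of 7 beta-tubulins were higher and 4 lower, 2 of 4 alpha-tubulins higher and 1 lower, 1 of 4 stathmins higher and 2 lower, and 4 of 9 MAPs higher and 1 lower. Of the motors, 4 of 15 kinesins were higher and 0 lower, 0 of 3 kinesin light chains higher and 1 lower, 2 of 14 dynein chains higher and 3 lower, and 1 of 6 dynactin subunits higher and 1 lower. Clusters were made from the expression of the same cells, so p here says how well a difference repeats over the sets. The changes were small, with a median size of 0.22 on the scale of log2(1 + counts per 10000), and 28 of the 29 had 1 direction in 3 of 3 sets. The exception was Kif2a, named for that reason, and its direction held in 2 of 3. The other 22 members did not reach a mean of 0.05 counts per 10000, and none of them averaged above 0.0649 in any of the 3 clusters. With each set left out in turn 15 members, 9 higher and 6 lower, still passed. Without Set 1, Set 2 or Set 3 the call was lost for 9 members each, with adjusted p of 0.0740 to 0.326, 0.0551 to 0.303 and 0.0610 to 0.280 in that order. The number lower was 8 without Set 1 and 8 without Set 3. With cells thinned to 15000 counts 12 were higher and 9 lower, against 17.4% of all genes, 8.37% higher and 8.98% lower. Without the block for the set 4 were higher and 1 lower. Glial markers were higher in cluster 4, as given above. When the 10% of neurons richest in glial counts were left out of each class, 26 of the 29 still passed. This step did not match glial content between classes, and the part of glial RNA in the differences was not tested.

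Among the tubulins, cluster 4 had more Tubb3, Tuba4a, Tubb6 and Tuba1c and less Tubb5, Tubb2b, Tubb2a, Tubb4b and Tuba1a. Tubb3, the beta-tubulin found mainly in neurons, had 20.4, 20.5 and 24.8 counts per 10000 in cluster 4, against 17.8, 17.6 and 22.0 in cluster 1 and 17.1, 17.2 and 19.6 in cluster 2. The sets overlapped between clusters, but within each set cluster 4 was above both, and the log2 difference was 0.21 (SE 0.0344, adjusted p = 0.000289). Tubb5, the broadly expressed beta-tubulin, had 15.1, 17.6 and 15.0 in cluster 4, against 23.8, 25.5 and 21.4 in cluster 1 and 17.2, 18.2 and 16.4 in cluster 2. It was lowest in cluster 4 in each set, with a log2 difference of -0.33 (SE 0.0363, adjusted p = 7.20e-06). Tubb2b, an isotype linked to neuronal migration, had 1.78, 1.79 and 2.10 in cluster 4, against 2.64, 2.64 and 3.11 in cluster 1 and 2.43, 2.25 and 2.74 in cluster 2. The groups did not overlap, and the difference of -0.34 (SE 0.0435, adjusted p = 3.39e-05) passed under every alternative tried. Tubb2a, its near-identical neighbour, differed by -0.16 (SE 0.0361, adjusted p = 0.00399), and reads of the pair could be split by the counting. Tubb4b differed by -0.16 (SE 0.0506, adjusted p = 0.0280), and Tubb4a by -0.10 (SE 0.0399, adjusted p = 0.0725), which did not pass. Tubb2a lost its call without Set 2, and Tubb4b without Set 2 or Set 3 and after thinning, at -0.15 (adjusted p = 0.131).

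Tuba4a, an alpha-tubulin that lacks the encoded C-terminal tyrosine of its relatives, had 2.45, 2.72 and 1.45 counts per 10000 in cluster 4, against 1.27, 1.67 and 1.14 in cluster 1 and 1.27, 1.82 and 0.841 in cluster 2. Cluster 4 was the highest in each set, with a log2 difference of 0.46 (SE 0.0608, adjusted p = 4.82e-05), although an exon of Tuba4a overlaps one of Stk16. Tuba1a, the main alpha-tubulin of neurons, had 51.6, 62.2 and 53.0 in cluster 4, against 60.8, 70.2 and 61.8 in cluster 1 and 54.2, 59.6 and 54.6 in cluster 2. Cluster 4 lay below cluster 1 in each set and overlapped cluster 2, the difference being -0.11 (SE 0.0287, adjusted p = 0.00857), and it was lost without Set 1 or Set 3. Tuba1b differed by -0.08 (SE 0.0381, adjusted p = 0.164), which did not pass. Tubb6, a beta-tubulin of many tissues, had 0.143, 0.327 and 0.265 in cluster 4, against 0.0521, 0.0641 and 0.109 in cluster 1 and 0.0703, 0.0723 and 0.0926 in cluster 2. Its levels did not overlap and their ratio was 3.19, with a log2 difference of 0.16 (SE 0.0236, adjusted p = 0.000131). Tuba1c had 0.131, 0.185 and 0.185 in cluster 4, against 0.0379, 0.0745 and 0.0718 in cluster 1 and 0.0451, 0.0483 and 0.0450 in cluster 2, at a ratio of 3.10 and a log2 difference of 0.13 (SE 0.0191, adjusted p = 0.000175). Both passed under every alternative. Without neurons rich in glial counts the differences were 0.17 for Tubb6 and 0.13 for Tuba1c. That alternative left out 10% of each class, 5 of 54 cells in cluster 4, and did not match glial content between classes. A glial part in these differences was not tested. Tuba1a, Tuba1b and Tuba1c are close copies, so reads among them could be split by the counting.

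The stathmins of cluster 4 fell apart by member. Stmn2, known as SCG10 and enriched in growing and injured axons, had 25.4, 25.9 and 19.1 counts per 10000 in cluster 4, against 31.9, 32.2 and 26.6 in cluster 1 and 28.7, 29.6 and 22.5 in cluster 2. It was lowest in cluster 4 within each set, at -0.28 (SE 0.0343, adjusted p = 2.05e-05). Stmn1 had 1.97, 1.44 and 1.25 in cluster 4, against 4.31, 2.38 and 1.86 in cluster 1 and 2.96, 1.38 and 1.48 in cluster 2. The difference was -0.36 (SE 0.0680, adjusted p = 0.00111), and in Set 2 cluster 4 was not below cluster 2. Stmn4 was higher by 0.23 (SE 0.0631, adjusted p = 0.0134), which was lost without Set 2, and Stmn3 differed by -0.05 (SE 0.0328, adjusted p = 0.292), which did not pass.

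Of 9 MAPs tested in cluster 4, Map1b, Map1a, Map2 and Map7 were higher and Mapt lower, and of these Map1b alone kept its call with each set left out in turn. Map1b, a MAP of axons and growth cones, had 46.5, 41.3 and 53.3 counts per 10000 in cluster 4, against 41.3, 37.8 and 45.9 in cluster 1 and 35.7, 33.6 and 42.1 in cluster 2. It was the highest in cluster 4 in each set, by 0.25 (SE 0.0303, adjusted p = 2.35e-05). Map1a, its adult counterpart, had 2.84, 3.55 and 2.98 in cluster 4, against 2.32, 2.69 and 1.91 in cluster 1 and 2.58, 2.71 and 1.85 in cluster 2. The levels did not overlap and the difference was 0.27 (SE 0.0630, adjusted p = 0.00560), but it was lost without Set 2 or Set 3 and after thinning, at 0.19 (adjusted p = 0.0862), and an exon overlaps one of Ppip5k1. Map2, a MAP of dendrites, was higher by 0.22 (SE 0.0499, adjusted p = 0.00420), which after thinning was 0.06 (adjusted p = 0.572). Map7, a partner of kinesin-1, was higher by 0.19 (SE 0.0473, adjusted p = 0.00857). Map2 and Map7 lost their calls without Set 1, and Map7 also without Set 3. Mapt, which encodes tau, had 3.89, 4.70 and 4.21 in cluster 4, against 4.599, 5.10 and 4.95 in cluster 1 and 4.51, 5.29 and 4.73 in cluster 2, a difference of -0.14 (SE 0.0413, adjusted p = 0.0183) that was lost whichever of the 3 sets was left out and was -0.06 (adjusted p = 0.532) after thinning. Map4 and Map6 differed by 0.16 (SE 0.0574, adjusted p = 0.0541) and 0.09 (SE 0.0540, adjusted p = 0.227) and did not pass, nor did Map1s at 0.05 (SE 0.0467, adjusted p = 0.489) or Map9 at -0.07 (SE 0.0442, adjusted p = 0.252).

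**Figure D2:**
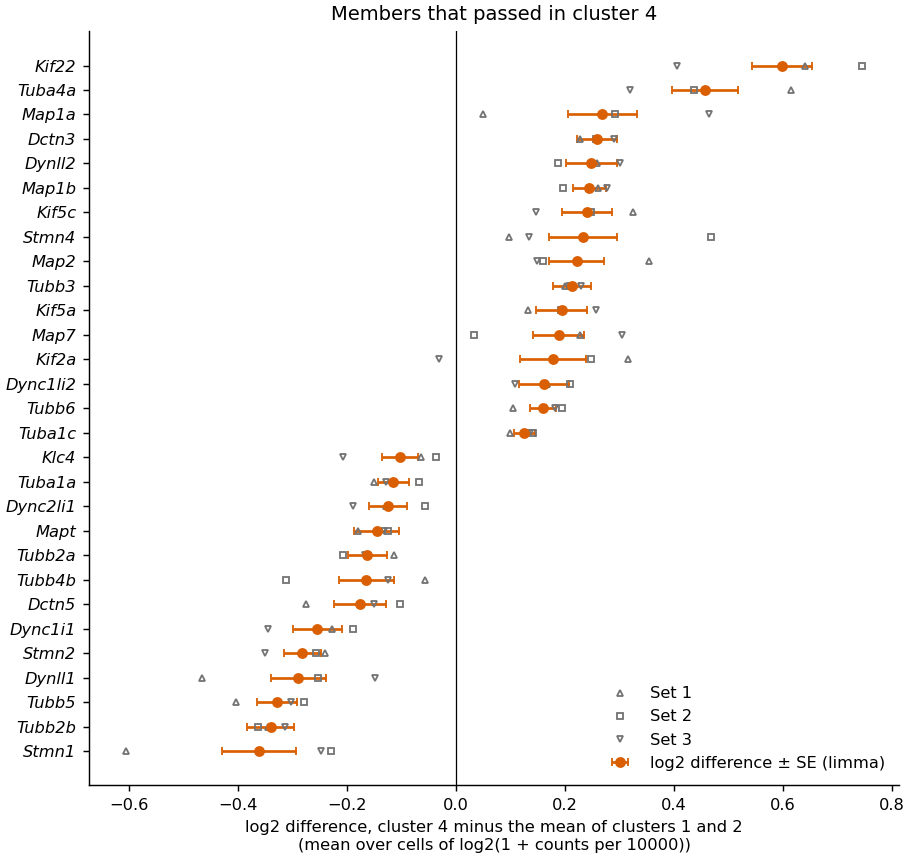
Log2 difference of cluster 4 from the mean of clusters 1 and 2, on mean log2(1 + counts per 10000), for the 29 members that passed; filled points show limma's estimate with its SE and open symbols the 3 sets. Kif22 lies farthest to the right and Stmn1 farthest to the left, and Set 1 of Stmn1 and Dynll1 lies beyond the other sets.

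Kif22, a chromosome-binding kinesin of dividing cells, had the highest difference of any member. It had 1.21, 1.62 and 0.766 counts per 10000 in cluster 4 and 0.860, 0.892 and 1.02 in high-count cluster 3, against 0.419, 0.306 and 0.363 in cluster 1 and 0.372, 0.359 and 0.252 in cluster 2. No set of cluster 4 overlapped clusters 1 or 2, the ratio was 3.47, and the log2 difference of 0.60 (SE 0.0551, adjusted p = 1.07e-06) passed under every alternative. At an equal depth of 15000 counts a Kif22 count was found in 40 of 53 cluster 4 cells (75.5%, exact 95% interval 61.7 to 86.2), 19 of 47 high-count cluster 3 cells (40.4%, 26.4 to 55.7), 149 of 367 cluster 1 cells (40.6%, 35.5 to 45.8) and 120 of 323 cluster 2 cells (37.2%, 31.9 to 42.7). These intervals cover counting error only. Without thinning the shares were 88.9%, 87.2%, 57.7% and 63.0% in that order. In low-count cluster 3, at its far lower depth, 1 of 54 cells had a Kif22 count (1.85%). No order is read from the thinned share of high-count cluster 3, which goes against its level. Of 5 listed markers of dividing cells 3 were in the table, and they summed to 0.0401 to 0.0809 counts per 10000 over the sets of cluster 4, and 0.0337 to 0.238 in high-count cluster 3, against 0.00521 to 0.0393 in cluster 1 and 0.0330 to 0.0615 in cluster 2. Of 11 listed mitotic kinesins 7 were in the table, and Kif22 alone reached the level needed for the test in this comparison. An exon of Kif22 overlaps the antisense gene Gm31749, and without a stated use of strand the reads of the pair cannot be told apart.

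Of 13 listed kinesins that carry axonal cargo, 10 were tested in cluster 4, and 2 were higher and 0 lower, against 24.7% of all genes called. These were Kif5c, with 4.30, 3.88 and 3.76 counts per 10000 in cluster 4, against 3.33, 3.33 and 3.45 in cluster 1 and 3.03, 2.92 and 3.14 in cluster 2, and Kif5a, both neuronal heavy chains of kinesin-1. Kif5c did not overlap and differed by 0.24 (SE 0.0461, adjusted p = 0.00126); Kif5a differed by 0.19 (SE 0.0460, adjusted p = 0.00602), which was lost without Set 2 or Set 3. Kif1a, the motor of synaptic vesicle precursors, had 8.71, 9.12 and 8.79 in cluster 4, against 9.30, 8.89 and 8.96 in cluster 1 and 9.50, 9.60 and 9.29 in cluster 2, and its difference of -0.06 (SE 0.0369, adjusted p = 0.231) did not pass. Kif1b, Kif3a, Kif5b, Kif21a, Klc1 and Klc2 gave log2 differences of -0.02, -0.09, -0.01, 0.12, -0.09 and -0.08, and none passed.

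In the retrograde motor, the pair of LC8 light chains moved in opposite directions in cluster 4. Dynll1 had 6.42, 9.27 and 4.73 counts per 10000 in cluster 4, against 8.94, 10.9 and 5.21 in cluster 1 and 9.59, 11.8 and 5.61 in cluster 2, lower within each set, at -0.29 (SE 0.0506, adjusted p = 0.000606). Dynll2 had 3.68, 3.67 and 2.99 in cluster 4, against 2.71, 2.85 and 2.25 in cluster 1 and 3.25, 3.42 and 2.39 in cluster 2, higher within each set by 0.25 (SE 0.0463, adjusted p = 0.000996); after thinning it was 0.17 (adjusted p = 0.0709). Dync1i1, the intermediate chain of neurons, had 0.701, 0.609 and 0.792 in cluster 4, against 1.02, 0.891 and 1.31 in cluster 1 and 0.976, 0.8286 and 1.27 in cluster 2, with no overlap and a difference of -0.25 (SE 0.0456, adjusted p = 0.000744). The heavy chain Dync1h1, which holds the motor, differed by 0.09 (SE 0.0550, adjusted p = 0.249) and did not pass. Dctn3, the p24 subunit of the dynactin shoulder, had 11.1, 9.95 and 11.3 in cluster 4, against 9.54, 8.00 and 9.26 in cluster 1 and 9.12, 8.05 and 9.09 in cluster 2, with no overlap and a difference of 0.26 (SE 0.0366, adjusted p = 8.76e-05). Dctn5, a subunit of the pointed end of dynactin, was lower, at -0.18 (SE 0.0477, adjusted p = 0.0138), which was lost without Set 1 or Set 3. Dctn1, which encodes p150Glued, differed by -0.11 (SE 0.0473, adjusted p = 0.115) and Dctn2 by 0.13 (SE 0.0560, adjusted p = 0.115), and neither passed.

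Shares within a family are not scaled by the total count of a cell. Tubb3 gave 33.8, 32.6 and 38.5% of beta-tubulin counts in cluster 4, against 24.9, 24.6 and 30.0% in cluster 1 and 27.1, 27.6 and 31.1% in cluster 2, and was higher in cluster 4 in each of 3 sets. Its share was 30.4, 31.7 and 36.6% in high-count cluster 3. Tubb5 gave 22.3, 27.5 and 22.2% in cluster 4 and 24.0, 24.9 and 20.5% in high-count cluster 3, against 32.7, 34.4 and 28.5% in cluster 1 and 26.8, 27.6 and 25.2% in cluster 2. Cluster 1 was thus the class of deep cells with the highest Tubb5 share in each set. Tubb3 outweighed Tubb5 in all 3 sets of cluster 4 and of high-count cluster 3, Tubb5 outweighed Tubb3 in Sets 1 and 2 of cluster 1, and the pair was close to equal in Sets 1 and 2 of cluster 2. Dynll2 gave 37.4, 28.3 and 38.9% of LC8 counts in cluster 4, against 22.7, 20.1 and 29.4% in cluster 1 and 25.4, 22.1 and 29.9% in cluster 2. In high-count cluster 3 it gave 27.2, 24.3 and 34.5%, also above clusters 1 and 2 in each set. Among the deep classes cluster 4 had the highest Dynll2 share in each set. Kif5b, the kinesin-1 heavy chain of most tissues, gave 19.7, 20.3 and 21.4% of kinesin-1 heavy chain counts in cluster 4, 27.9, 31.4 and 24.4% in high-count cluster 3, 22.9, 22.0 and 23.8% in cluster 1 and 26.2, 28.4 and 25.6% in cluster 2. Tuba1a made up 77.4% of alpha-tubulin counts in cluster 4, 78.5% in high-count cluster 3, 79.3% in cluster 1 and 78.1% in cluster 2, with little spread. Klc1 made up 90.8% of kinesin light chain counts in cluster 4, 90.5% in high-count cluster 3, 89.2% in cluster 1 and 91.1% in cluster 2. The shares are given as a description, with no test.

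**Figure D3:**
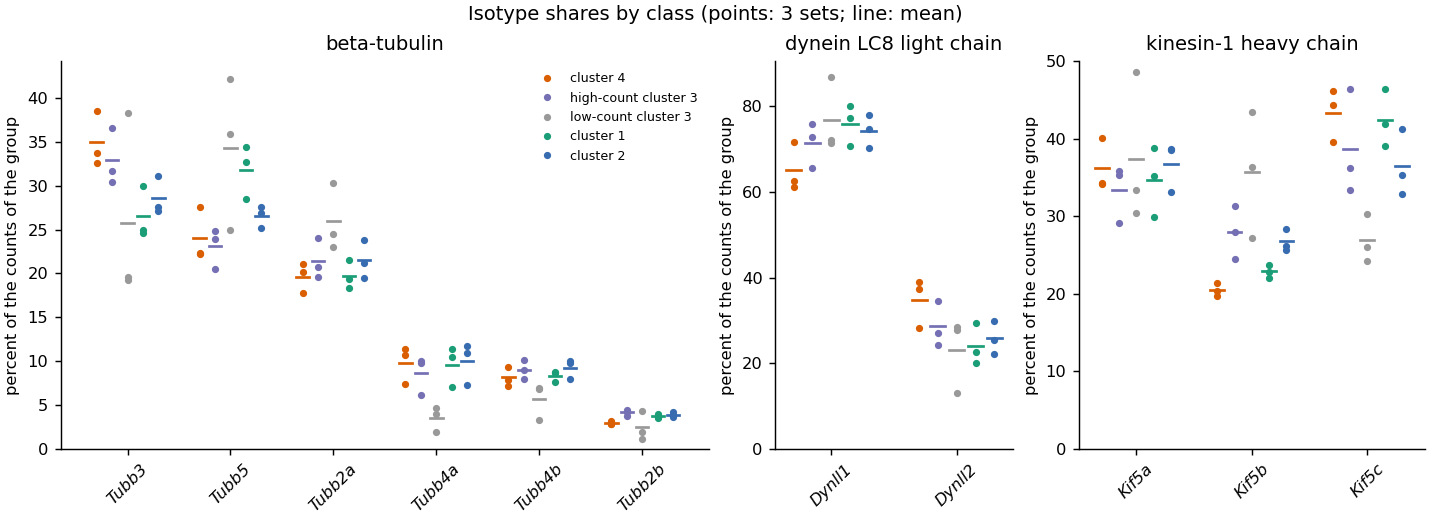
Percent of the counts of a group of paralogs given by each member in 5 classes; points are the 3 sets and lines the mean. In cluster 4 the points of Tubb3 lie above those of Tubb5. The points of Dynll2 reach 38.9% there, against at most 34.5% in high-count cluster 3, 29.4% in cluster 1 and 29.9% in cluster 2.

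Clusters 1 and 2 differed in fewer members. Of 65 tested, 5 were higher and 3 lower in cluster 1 (12.3%), against 8.86% of all 10564 genes, 3.59% higher and 5.27% lower. Tubb5 had 23.8, 25.5 and 21.4 counts per 10000 in cluster 1, against 17.2, 18.2 and 16.4 in cluster 2, with no overlap and a log2 difference of 0.43 (SE 0.0419, adjusted p = 5.29e-06). Stmn1 had 4.31, 2.38 and 1.86 in cluster 1, against 2.96, 1.38 and 1.48 in cluster 2, higher within each set by 0.37 (SE 0.0785, adjusted p = 0.00581). Tuba1a had 60.8, 70.2 and 61.8 in cluster 1, against 54.2, 59.6 and 54.6 in cluster 2, without overlap, by 0.19 (SE 0.0331, adjusted p = 0.00142). Stmn2 and Map1b were higher by 0.16 (SE 0.0397, adjusted p = 0.0157) and 0.16 (SE 0.0350, adjusted p = 0.00695). Dynlt3, a Tctex-type dynein light chain, had 2.95, 2.87 and 2.64 in cluster 1, against 3.75, 4.06 and 3.75 in cluster 2, with no overlap and a difference of -0.36 (SE 0.0506, adjusted p = 0.000201). Dynlrb1, a roadblock light chain, was lower, at -0.16 (SE 0.0415, adjusted p = 0.0213), and Map9, a spindle and cilium protein, was lower, at -0.19 (SE 0.0511, adjusted p = 0.0254). Only Tubb5, Tuba1a and Dynlt3 passed with each set left out in turn. Map9, Stmn2 and Dynlrb1 lost the call whichever of the 3 sets was left out, Map1b without Set 1 and Stmn1 without Set 2. With a set left out 3 to 4 members were higher and 1 to 2 lower, counting Kif5b, which passed without Set 3 and not otherwise among these 3 fits; the adjusted p of the lost calls was 0.0685 to 0.367. Cells of cluster 1 were shallower than those of cluster 2. After thinning, which lost Stmn2, Dynlrb1 and Map9, 4 were higher and 1 lower, against 4.92% of all genes, 2.41% higher and 2.51% lower, and Tubb5 stood at 0.42 (adjusted p = 5.67e-05). Without the block no member passed, at 4 members with an unadjusted p under 0.05 in limma, while voom weights called 14 higher and 10 lower.

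In high-count cluster 3, Tubb6, Kif22, Dynll2 and Tubb3 were higher than in clusters 1 and 2 and Tubb5, Tubb4a and Stmn2 lower, both from all counts and after the depth of the cells was matched. Of 67 tested, 17 were higher and 3 lower (29.9%), against 25.3% of all 10404 genes, 17.7% higher and 7.6% lower, so the members and all genes leaned the same way. These cells were the deepest, and after thinning to 15000 counts 7 were higher and 3 lower (14.9%), against 11.2% of all genes, 5.78% higher and 5.4% lower. Of the 20 members, 9 passed both ways. Clusters 1 and 2 serve as controls here as they did for cluster 4, so the values of the 2 comparisons are set side by side and not counted together. The members that kept the call with each set left out numbered 10, 8 higher and 2 lower.

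Tubb6 had 0.364, 0.342 and 0.459 counts per 10000 in high-count cluster 3, against 0.0521, 0.0641 and 0.109 in cluster 1 and 0.0703, 0.0723 and 0.0926 in cluster 2. It did not overlap, the ratio was 5.06, the log2 difference was 0.23 (SE 0.0216, adjusted p = 2.51e-07), and thinned it was 0.28 (adjusted p = 7.73e-05). At 15000 counts Tubb6 was found in 15 of 47 high-count cluster 3 cells (31.9%, 19.1 to 47.1), 12 of 53 cluster 4 cells (22.6%, 12.3 to 36.2), 34 of 367 cluster 1 cells (9.26%, 6.50 to 12.7) and 46 of 323 cluster 2 cells (14.2%, 10.6 to 18.5). Endothelial markers summed to 1.17 to 1.90 counts per 10000 over the sets of high-count cluster 3. The sums were 0.962 to 1.35 in cluster 1 and 1.01 to 1.37 in cluster 2. Of the 8 markers 4 were detected in high-count cluster 3, and Cdh5, Cldn5, Flt1 and Kdr were at 0. Cdh5 and Kdr were at 0 in clusters 1 and 2 too. The part of endothelial RNA in the Tubb6 difference was not tested. Tuba1c had 0.0864, 0.0960 and 0.253 in high-count cluster 3, a ratio of 2.70 to clusters 1 and 2, and differed by 0.10 (SE 0.0212, adjusted p = 0.00246), which was lost without Set 3. Kif22 differed by 0.24 (SE 0.0421, adjusted p = 0.000391) with a ratio of 2.68, and its highest thinned count was 16 in high-count cluster 3, against 6 in cluster 1 and 4 in cluster 2. Tubb6 and Kif22 passed under every alternative tried. At 15000 counts, however, the share of cells with a Kif22 count was 40.4% in high-count cluster 3, against 40.6% in cluster 1 and 37.2% in cluster 2.

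Among the tubulins of high-count cluster 3, Tubb3 was higher and Tubb5 and Tubb4a were lower. Tubb5 had 14.4, 15.8 and 14.6 counts per 10000, below all sets of clusters 1 and 2 given above, at -0.40 (SE 0.0385, adjusted p = 3.84e-07) and, thinned, -0.42 (adjusted p = 2.62e-05). Tubb3 had 18.6, 20.01 and 25.3, higher within each set by 0.18 (SE 0.0408, adjusted p = 0.00346). Tubb2b had 2.58, 2.45 and 3.21 and differed by 0.08 (SE 0.0419, adjusted p = 0.164), which did not pass, but after thinning it was higher, by 0.23 (adjusted p = 0.0356). High-count cluster 3 was not tested against cluster 4. Tubb4a was lower, at -0.19 (SE 0.0401, adjusted p = 0.00164). Stmn2 had 26.0, 27.6 and 21.9 and was lower, at -0.17 (SE 0.0361, adjusted p = 0.00184), a call lost without Set 1.

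Motor and dynactin subunits of high-count cluster 3 were mostly called before thinning only. Dynll2 had 3.83, 4.07 and 3.36 counts per 10000, against 2.71, 2.85 and 2.25 in cluster 1 and 3.25, 3.42 and 2.39 in cluster 2, higher by 0.36 (SE 0.0435, adjusted p = 6.18e-06) and, thinned, by 0.29 (adjusted p = 0.00763). Dynll1 had 10.1, 12.7 and 6.43, higher by 0.18 (SE 0.0385, adjusted p = 0.00183), where cluster 4 was lower, and thinned by 0.14 (adjusted p = 0.111). Kif5b had 2.59, 3.23 and 1.76, against 1.80, 1.86 and 1.79 in cluster 1 and 2.23, 2.49 and 1.88 in cluster 2. Its difference was 0.25 (SE 0.0697, adjusted p = 0.0179), a call lost without Set 1 or Set 2 and kept after thinning. In Set 3 its level lay below that of cluster 1 and of cluster 2. Dctn5, Map2, Map6 and Dctn6 passed at 0.22, 0.26, 0.16 and 0.17 and did not pass after thinning; Map6 and Dctn6 also lost the call without Set 1 or Set 2. Tuba4a passed at 0.23 (SE 0.0467, adjusted p = 0.00138) and turned to -0.01 (adjusted p = 0.964) after thinning.

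**Figure D4:**
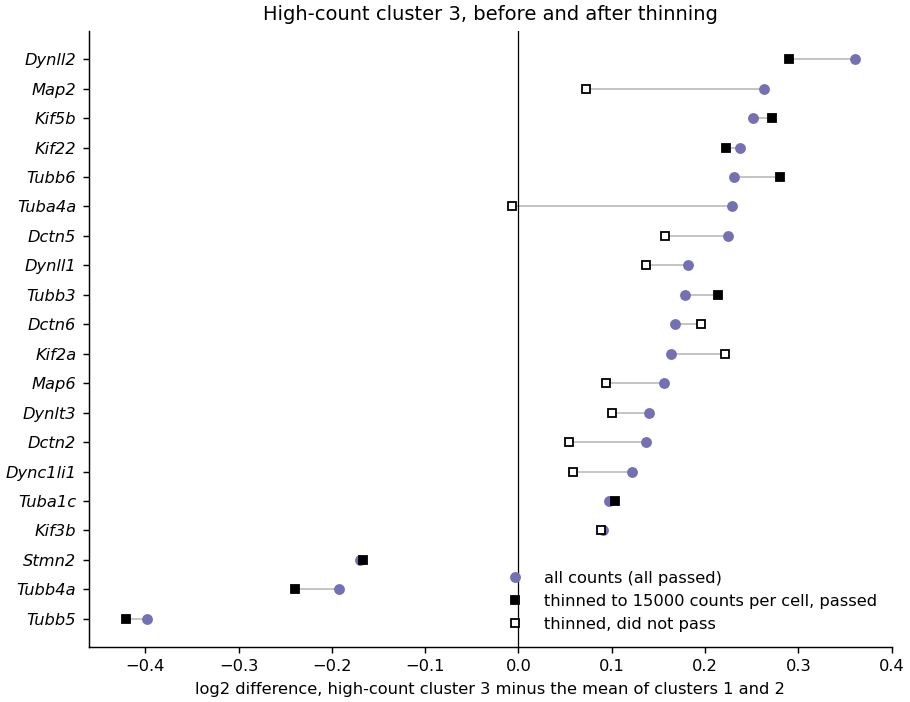
Log2 difference of high-count cluster 3 from the mean of clusters 1 and 2 for the 20 members that passed, from all counts (circles) and after thinning each cell to 15000 counts (squares, filled where the adjusted p was under 0.05). Tuba4a and Map2 move the most toward 0, and 9 keep their calls: Tubb5, Tubb4a, Stmn2, Tubb6, Tubb3, Tuba1c, Dynll2, Kif5b and Kif22.

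Low-count cluster 3 held less of the neuronal tubulins. With every cell thinned to 1500 counts, 0 of 66 members were higher and 11 lower (16.7%), against 4.26% of all 11062 genes, 2.15% higher and 2.11% lower. Tubb3 had 4.91, 6.66 and 7.73 counts per 10000, against 17.8, 17.6 and 22.0 in cluster 1 and 17.1, 17.2 and 19.6 in cluster 2, a log2 difference of -2.40 (SE 0.347, adjusted p = 0.0139). Tuba1a had 14.2, 28.8 and 22.6, against 60.8, 70.2 and 61.8 in cluster 1 and 54.2, 59.6 and 54.6 in cluster 2, lower, at -1.85 (SE 0.317, adjusted p = 0.0191). Stmn2 had 12.4, 21.2 and 8.59 and was lower, at -2.10 (SE 0.323, adjusted p = 0.0155), and Map1b had 16.0, 28.0 and 12.0 and was lower, at -2.01 (SE 0.408, adjusted p = 0.0324). None of the 11 overlapped clusters 1 or 2 in level. The log2 values of this fit are not fold changes of the levels, which differ less for these genes. Tubb3, at -2.40, averaged 6.43 counts per 10000, against 19.1 in cluster 1 and 18.0 in cluster 2. Stmn1 had 0.127, 0.115 and 0.269 and was lower, at -0.79 (SE 0.164, adjusted p = 0.0347); Tubb4a, Tuba1b, Klc1, Tubb4b, Tubb2b and Dctn1 were lower, at -1.73, -1.72, -1.43, -0.84, -0.67 and -0.57 on the log2 scale.

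Of the 54 cells Set 3 holds 8. Without Set 1 or without Set 3 no gene of the table passed in limma, although 22 and 23 members had an unadjusted p under 0.05 there. The adjusted p of the 11 members was then 0.264 to 0.312 without Set 1 and 0.129 to 0.226 without Set 3. Without Set 2, 6 members were lower. Without thinning 3 were higher and 54 lower, against 53.1% of all genes, 5.85% higher and 47.3% lower. Endothelial, fibroblast and mural markers, at 9.69 to 32.1, 0.327 to 44.1 and 2.47 to 26.6 counts per 10000 over its sets, were above those of clusters 1 and 2, where the highest sets had 1.37, 0.130 and 1.38. The 6 neuron markers summed to 19.1 to 41.6, against 65.7 to 76.6 in cluster 1 and 76.0 to 89.8 in cluster 2. The part of these mixed contents in the differences was not tested. Tubb5, which many cell types express, had 10.5, 14.2 and 10.5 counts per 10000 and did not pass, at -0.90 (SE 0.258, adjusted p = 0.0861). Tubb6 had 0.607, 0.357 and 1.17 and Tuba1c 0.792, 0.402 and 1.22, above clusters 1 and 2 in each set, and neither passed, at 0.23 (SE 0.114, adjusted p = 0.207) and 0.17 (SE 0.0724, adjusted p = 0.161). Dync1i2, a dynein intermediate chain of many tissues, had 12.2, 5.16 and 18.2, against 4.93, 5.52 and 3.81 in cluster 1 and 5.45, 5.21 and 3.96 in cluster 2, and did not pass at -0.12 (SE 0.201, adjusted p = 0.699).

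Some members differed between sets in the same way in every deep class. Of 38 members with at least 1 count per 10000 in all 4 deep classes, 6 (15.8%) varied at least 1.5-fold between sets in each class with the same set on top, against 139 of 1599 genes (8.69%). The median ratio of highest to lowest set was 1.26 for members and 1.27 for all genes. Dynll1 was highest in Set 2 and lowest in Set 3 in every deep class, with a median ratio of 2.03. Kif1b followed the same order, with 3.88, 4.40 and 2.68 counts per 10000 in cluster 4, 4.30, 5.66 and 2.36 in high-count cluster 3, 3.84, 4.63 and 2.77 in cluster 1 and 4.06, 5.07 and 2.46 in cluster 2. Stmn1 was highest in Set 1, at a median ratio of 2.05. Klc1, Stmn4 and Tubb4a were highest in Set 3. Klc1 had 9.54, 8.74 and 14.1 in cluster 4, 9.68, 10.6 and 14.9 in high-count cluster 3, 9.51, 9.60 and 14.7 in cluster 1 and 9.68, 10.4 and 15.4 in cluster 2, and an exon of it overlaps one of Xrcc3.

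For Klc1, Dynll1, Stmn1 and Stmn4 the plates of the highest set did not overlap those of the other sets. Klc1 averaged 14.8 to 15.1 counts per 10000 over the 3 plates of Set 3, against 9.13 to 9.98 over the 4 plates of Set 1 and 9.48 to 10.4 over those of Set 2. Dynll1 averaged 11.0 to 11.6 over the plates of Set 2, 8.70 to 9.76 in Set 1 and 4.70 to 5.93 in Set 3. Stmn1 averaged 3.19 to 3.90 in Set 1, 1.44 to 2.60 in Set 2 and 1.51 to 1.72 in Set 3. Plates of Sets 1 and 2 overlapped for Kif1b, and plates of Sets 1 and 3 for Tubb4a. By contrast Kif1a, at a median ratio of 1.05, and Kif5c, at 1.06, were the steadiest of the 38 members. Each set is 1 pool of animals handled together, so the animals and the handling of a set cannot be told apart and no test was made between sets.

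**Figure D5:**
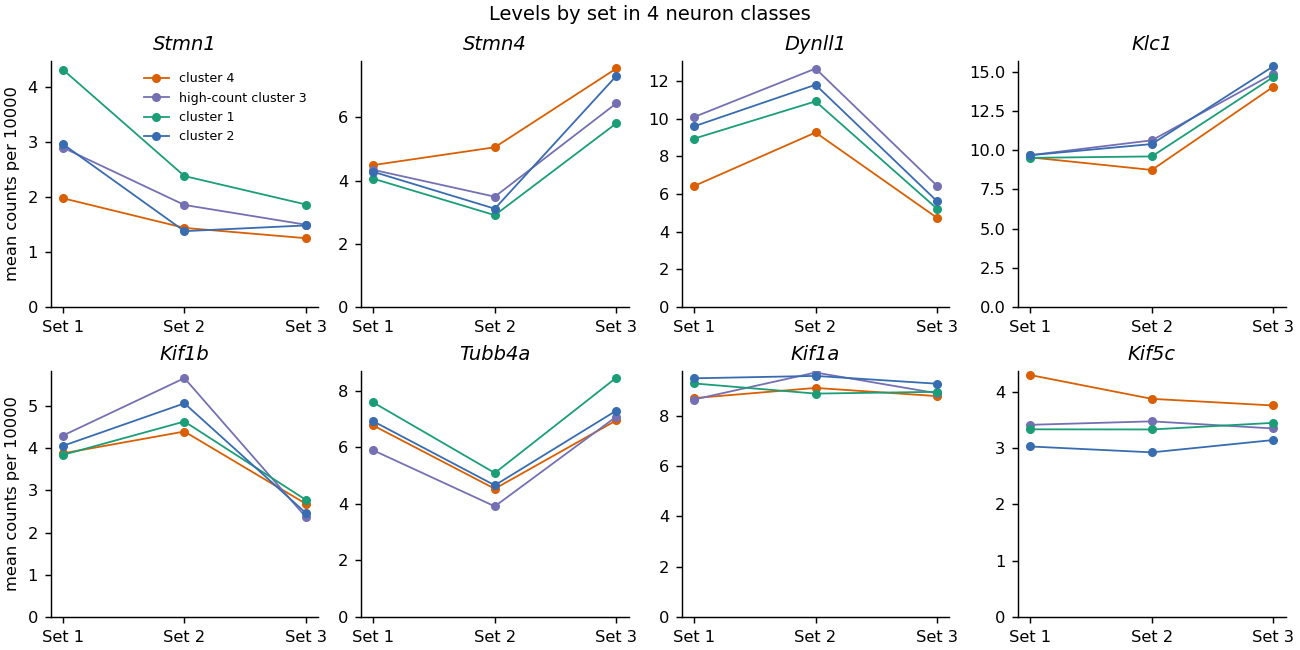
Mean counts per 10000 of 8 members in Sets 1, 2 and 3, with a line for each of 4 classes; lines join the sets of a class for reading only. The lines of Klc1 lie almost on one another and step up in Set 3, those of Dynll1 peak in Set 2, and those of Kif1a and Kif5c are nearly flat.

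From cell to cell within clusters 1 and 2, the 2 closest pairs of abundant members were Tuba1a with Tubb5 and Tuba1a with Tubb2a. Over the 45 pairs of the 10 members with at least 10 counts per 10000, which are 5 tubulins and Stmn2, Stmn3, Map1b, Klc1 and Dynlrb1, the median Pearson r of thinned log levels was 0.0920 in cluster 1 and 0.0928 in cluster 2. For all pairs of genes at that level the medians were 0.0156 in cluster 1 and 0.0224 in cluster 2. Tuba1a and Tubb5 formed the closest pair, with r of 0.411, 0.378 and 0.420 over 146, 133 and 88 cells of cluster 1 in Sets 1, 2 and 3. In cluster 2 their r was 0.436, 0.466 and 0.437 over 136, 106 and 81 cells. Tuba1a and Tubb2a followed, at a mean r of 0.324 in cluster 1 and 0.344 in cluster 2. Cells of a set come from 1 pool of 2 mice and from 3 or 4 plates, each with its own library. Differences between plates were not removed and can enter r, so these values are descriptions without a p.

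Other genes that act on microtubules were called at close to the share of all genes in cluster 4. Of 68 listed folding factors, tubulin-modifying enzymes, motor adaptors and end-binding proteins, 62 were tested in cluster 4, and 7 were higher and 10 lower, against 24.7% of all genes, 12.4% higher and 12.3% lower. The 4 with the smallest p, picked by that rank, were Clstn1, Dst, Dpysl2 and Clstn3. Clstn1, a kinesin-1 cargo adaptor, had 1.41 ± 0.106 counts per 10000 in cluster 4, against 2.55 ± 0.219 in cluster 1 and 2.68 ± 0.219 in cluster 2, a log2 difference of -0.58 (SE 0.0449, adjusted p = 1.61e-07). Dst, a linker of microtubules to other filaments, had 4.28 ± 0.796 in cluster 4, against 2.77 ± 0.529 in cluster 1 and 2.92 ± 0.814 in cluster 2, a difference of 0.46 (SE 0.0510, adjusted p = 6.92e-06). Dpysl2, which encodes the tubulin-binding CRMP2, had 4.59 ± 0.281 in cluster 4, against 7.02 ± 0.845 in cluster 1 and 6.22 ± 0.619 in cluster 2, a difference of -0.44 (SE 0.0486, adjusted p = 7.14e-06). In cluster 1 against cluster 2 there were 2 higher and 2 lower of 62, against 8.86% of all genes. In high-count cluster 3 against clusters 1 and 2, from all counts, there were 11 higher and 3 lower of 62. Of all genes 25.3% were called there, 17.7% higher and 7.6% lower, so they leaned the same way. After thinning 11.2% of all genes were called, and the 62 were not counted again. In low-count cluster 3, thinned, there were 0 higher and 2 lower of 63, against 4.26% of all genes.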

How the data were processed

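Single cells of the stellate ganglion were sorted into plates and 3′ ends were sequenced, per the labels' protocols. The submitters' processing notes name STAR 2.5.3a, SAMtools 1.4.1, featureCounts 1.5.3, Seurat (no version) and the build GRCm38. The deposited values are the natural log of 1 plus counts per 10000 in each cell; whole counts were recovered within 0.001 for 100.0% of non-zero values. The deposited cluster numbers are labels; the wells of the sort record carry no key to the cells and were not used.

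The test was limma 3.58.1 (R 4.3.3, trend and robust, two-sided) on log2(1 + counts per 10000) averaged over the cells of a set and class. Set was a block, as every class came from the same pools of animals. Genes needed a mean of 0.05 counts per 10000, a class 5 cells in a set, and p-values were Benjamini-Hochberg adjusted over all genes tested. This scale understates changes of low genes in the deep classes. In the fit thinned to 1500 counts, the differences of abundant members such as Tubb3, Stmn2 and Map1b came out larger than their mean levels give. Low-count cluster 3 was tested after thinning all cells to 1500 counts. The plan used no count test, since the unit is a log. Alternatives were median-of-ratios size factors or voom weights on summed counts, thinning to 15000 counts, a pseudocount of 0.1, no filter, no block, leaving out each set, and leaving out the 10% of neurons richest in glial counts. The code was checked on simulated data. Sets are separate pools of 2 mice; plates are technical. No doublet caller was run.

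Members, lists and tests were chosen with earlier results of these data known. Names were drawn from the 12 members higher and 12 lower with the smallest p in each comparison. A fixed list of the main tubulins, stathmins, MAPs, kinesins, dynein chains and dynactin subunits was also used. Not every member of these groups is named above, and Dync2li1, lower in cluster 4, is among those left out. Other names are said to be chosen by their values. Of 6 macrophage markers 3 were in the table, and they summed to at most 0.648 counts per 10000 in any set and class. Of 4 lymphocyte markers 0 were in the table, so that list could not show whether such cells were present. Positions come from GENCODE M21, promoters from RefSeq.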

Additional observations from a re-analysis of the deposited data

Results flagged for a closer look

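The summed level of the alpha-tubulins in plate 1 of Set 1 was 78.7 counts per 10000, against 71.3, 71.3 and 71.7 on the other 3 plates of that set. Its gap to the nearest plate was 0.950 of the range of the 4 plates, above Dixon's 95% critical value for 4 samples. This was 1 of 20 groups of 4 plates examined, and chance alone flags about 1 in 20. Plates were not used as replicates in any comparison.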

How the results depend on the processing

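In cluster 4 the number of members higher fell to 4 without the replicate block and the number lower to 1; leaving out a set gave 12 to 13 higher and 8 to 9 lower. In cluster 1 against cluster 2 the number higher was 3 without the filter, 0 without the block, 14 with voom weights and 3 to 4 with a set left out, and the number lower was 1 with thinning, without the filter and with median-of-ratios scaling, 0 without the block, 10 with voom weights and 1 to 2 with a set left out. In high-count cluster 3 the number higher was 28 with a pseudocount of 0.1, 7 thinned, 11 without the filter, 2 without the block, 10 with median-of-ratios scaling and 10 to 13 with a set left out. The number lower there was 5 without neurons rich in glial counts, 0 without the block and 5 with voom weights. In low-count cluster 3 the number higher was 3 without thinning and 5 with either median-of-ratios size factors or voom weights; the number lower was 54 without thinning, 19 and 17 with those, and 0 to 6 with a set left out. Tuba4a in high-count cluster 3 turned to -0.0073 after thinning. In low-count cluster 3, Dync1h1, Map1s and Map4 turned to -0.61, -0.20 and -0.52 without thinning, and Dync1i2 to 0.83 and 0.80 with median-of-ratios size factors and voom weights. The cause was not tested. Of the larger isotype shares, 78 moved by less than 1 SD between sets when averaged per cell, and 5, all in low-count cluster 3, by more. Smaller shares were outside this count, and some of them also moved by more than 1 SD. Klc4 went from 2.77% to 9.04% in low-count cluster 3 (SD 2.45), and Tuba1c from 0.266% to 0.229% in cluster 4 (SD 0.0346). A split of cluster 3 at the widest gap was already the main one, so that alternative was not run. Depth limits the low-count cells, where 1 count stands for several counts per 10000.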

Other observations

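Of the listed genes outside the 87 that act on microtubules, the 4 with the smallest p in high-count cluster 3 against clusters 1 and 2 were Dpysl2, Ttll7, Actr10 and Mapre1, picked by that rank. On the log2 scale Dpysl2 (CRMP2) differed by -0.36, Ttll7, a tubulin polyglutamylase, by 0.29, Actr10, a subunit of the dynactin pointed end, by 0.27, and Mapre1, the plus-end protein EB1, by 0.25. In cluster 4 Ttll7 differed by 0.26 and Agtpbp1, an enzyme that shortens polyglutamate chains, by 0.40. These differences are from all counts, and their values after thinning are not given, although high-count cluster 3 was the deepest class. The comparisons share clusters 1 and 2 as controls.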
